A study of Mus musculus with 6 samples.

Results

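The 10 secreted or cell surface matrix genes described here are Postn, Tnc, Tnn, Fn1, Sparc, Sparcl1, Smoc1, Smoc2, Cthrc1 and Islr. They were taken by symbol from the raw read count table, so that 10 of its 22609 genes are members, and all 10 passed the filter of at least 10 counts in at least 2 libraries. The tissue was the mandibular condyle, the joint head of the lower jaw, of CD-1 mice at postnatal day 7, with no treatment and no altered allele given in the labels. Cells of the articular zone, the fibrous layer at the joint surface, and of the mature zone, the cartilage beneath it, were cut out by laser on the basis of cell morphology. Each library was made from 25 to 30 pooled sections. Processed values cover 3 articular zone libraries (numbered 2, 3 and 4) and 2 mature zone libraries (numbered 2 and 3). The last mature zone replicate, number 4, has no processed values and is not analysed here. Neither the number of animals per pool nor any sharing of animals between libraries of the same number could be learned from the labels or methods, so p-values measure the spread between these pooled libraries.

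Matricellular proteins are secreted into the matrix but are not mainly structural. They bind collagens, fibronectin, growth factors and integrins, and modulate how cells adhere and how fibrils are assembled. Fibrous connective tissue such as periosteum, tendon and perichondrium is known for periostin and the tenascins, whereas SPARC is abundant in bone and in other tissues that lay down collagen.

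The libraries held 15449883 to 18884685 counts, with 12357 to 14650 genes at 1 count or more. The zone labels were checked against marker genes, as summed CPM, counts relative to library size after TMM scaling, a correction for differences in RNA composition between libraries. The sum of 8 chondrocyte markers was 1608 to 2869 CPM in the articular zone and 21898 to 36445 CPM in the mature zone, and 7 of the 8 were lower in the articular zone at an adjusted p under 0.05. The sum of 6 superficial and tendon-like fibrous markers was 237 to 471 CPM in the articular zone and 59.0 to 97.3 CPM in the mature zone, and 2 of the 6 were higher. Prg4, the lubricin gene that defines the joint surface, was nearly absent, with 32, 11 and 57 counts in the articular libraries, against 11 and 0 in the mature ones. Skeletal muscle markers summed to 1244 CPM in articular zone replicate 2 and 1042 CPM in mature zone replicate 2, against 16.8 to 66.0 CPM in the other 3 libraries. In bulk samples such as these, fewer cells of a type and less RNA per cell cannot be told apart.

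Levels between genes were compared as FPKM, fragments scaled for the length of the gene model and the number mapped in a library, as deposited. Sparc, the gene of osteonectin, was the most abundant member in every library, at 3119, 3475 and 3661 FPKM in the articular libraries, against 3888 and 3593 FPKM in the mature ones. It ranked 3, 2 and 1 among all genes in the articular zone libraries and 1 in both mature zone libraries. Postn followed at 907, 1433 and 1157 FPKM in the articular libraries, against 752 and 692 FPKM in the mature ones. In the articular zone the order by mean FPKM was Sparc, Postn, Cthrc1, Tnc, Tnn, Fn1, Islr, Sparcl1, Smoc2 and Smoc1. The ranges of neighbours in this order were separate except for Islr with Sparcl1 and Sparcl1 with Smoc2. In the mature zone it was Sparc, Postn, Cthrc1, Tnc, Fn1, Tnn, Smoc2, Islr, Sparcl1 and Smoc1. There the ranges of Postn with Cthrc1, of Tnc with Fn1, of Fn1 with Tnn, of Smoc2 with Islr and of Islr with Sparcl1 overlapped. RefSeq places Tnn on chromosome 1 (160085029 to 160153692), Sparcl1 on 5 (104079108 to 104114088), Smoc1 on 12 (81026808 to 81186414), Smoc2 on 17 (14279490 to 14404790) and Cthrc1 on 15 (39076932 to 39087121) of GRCm38.p6, the build also called mm10. Islr held rank 771, 1412 and 1193 among all genes in the articular zone and rank 4485 and 6701 in the mature zone.

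**Figure D1:**
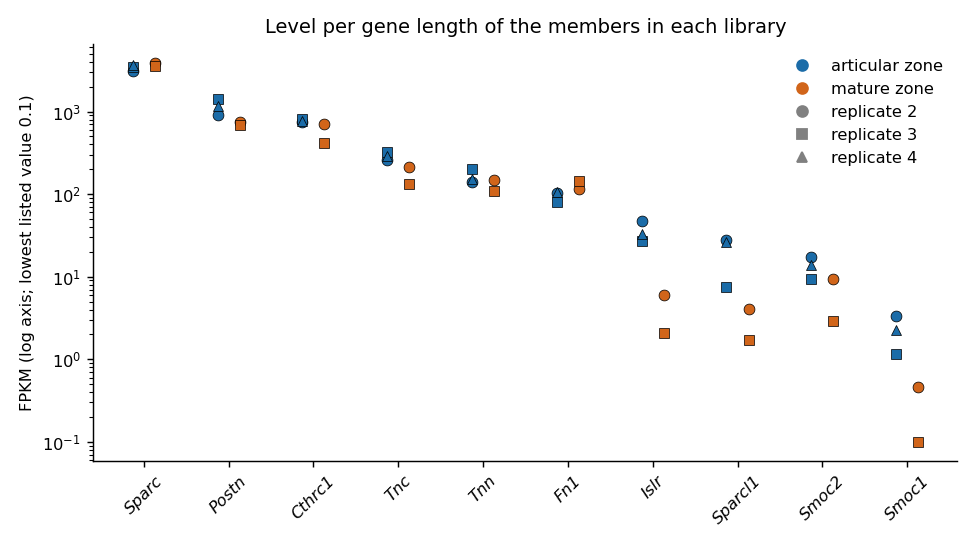
Deposited FPKM of the 10 genes on a log axis, with 1 point for each library of the articular and the mature zone. Sparc lies at 3119 FPKM or more in every library, and Smoc1 lies lowest, at 3.33 FPKM or less.

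The test between zones was edgeR's quasi-likelihood test on the raw counts, with Benjamini-Hochberg adjustment over all 13119 genes that passed the filter, and log2 fold changes are given as articular over mature zone. Of the 10 members, 1 passed at an adjusted p under 0.05, and it was Islr, higher in the articular zone. Over all genes tested the share that passed was 3.00%, with 1.14% higher and 1.85% lower in the articular zone, from 150 and 243 genes. Under total count scaling, tried after the data were seen, this split was 185 higher and 168 lower, and with limma on log2(FPKM + 1) it was 275 and 201. In TMM-scaled CPM the zones did not overlap for 8 of the 10 members, 6 higher and 2 lower in the articular zone, against 38.7% of all genes tested (21.1% higher and 17.6% lower). In CPM of the total count, 8 members did not overlap and all 8 were higher, since Fn1 and Sparc then overlapped and Tnn and Smoc2 did not. Over all genes tested that share was 39.7% (27.4% higher and 12.3% lower). In FPKM, 7 did not overlap, 6 higher and 1 lower, against 35.6% of 13118 genes (23.7% higher and 11.8% lower). At an unadjusted p under 0.05 edgeR gave 5 of the 10 members, against 20.1% of all genes. DESeq2 called 4 of the 10 members, 3 higher (Islr, Sparcl1 and Tnc) and 1 lower (Fn1), against 13.7% of all genes (7.90% higher and 5.84% lower).

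**Figure D2:**
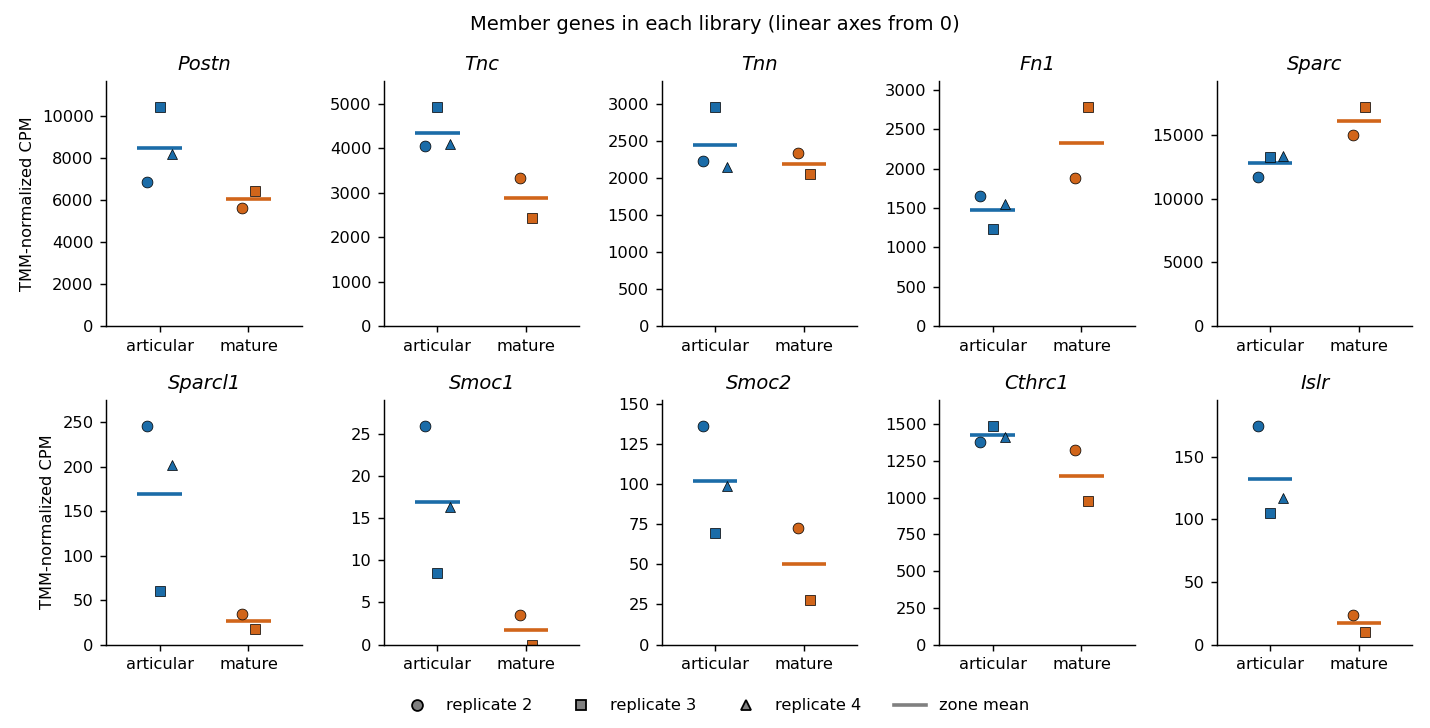
TMM-scaled CPM in 1 panel per gene, on linear axes from 0, with a point for each library by zone (the marker shape gives the replicate number) and a line at the zone mean. The zones do not overlap for 8 genes and overlap for Tnn and Smoc2.

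Periostin and the tenascins were abundant in both zones. Postn, whose protein binds collagen and takes part in collagen fibril assembly, was at 6871, 10414 and 8186 CPM in the articular libraries, against 5641 and 6422 CPM in the mature ones. All 3 articular values lay above both mature values, with means of 8490 ± 1791 (SD, n = 3) and 6032 ± 552 (SD, n = 2). The log2 fold change was 0.49 (SE 0.20), and Postn did not pass the edgeR test (adjusted p = 0.219). Tnc encodes tenascin-C, which modulates adhesion of cells to fibronectin. It was at 4047, 4929 and 4091 CPM in the articular libraries, against 3344 and 2444 CPM in the mature ones. The zones did not overlap here either, and the log2 fold change of 0.59 (SE 0.19) did not pass edgeR's test (adjusted p = 0.140). DESeq2 gave an adjusted p of 0.0158 for Tnc.

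Tnn, the gene of tenascin-W, which is known from periosteum and developing bone in mice, was at 2225, 2952 and 2149 CPM in the articular libraries, against 2331 and 2053 CPM in the mature ones. The zones overlapped, with a log2 fold change of 0.16 (SE 0.19) and a 95% interval from -0.28 to 0.59, not adjusted for the number of genes (edgeR adjusted p = 0.726). Within each library, the log2 ratio of Tnc to Tnn FPKM, which does not depend on scaling between libraries, was 0.89, 0.71 and 0.92 in the articular libraries, against 0.52 and 0.28 in the mature ones. The zones did not overlap in this ratio. The difference in means was 0.44 (exact permutation test over libraries, two-sided, p = 0.1, adjusted p = 0.167 over 5 ratios), and 0.1 is the smallest p that 3 against 2 libraries allow. The log2 ratio of Tnc to Postn differed by 0.13 (exact permutation p = 0.6), and without mature zone replicate 3 the sign of that difference turned to -0.15.

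The upstream stretches of Postn and Tnc are shown because both genes were abundant and their articular values all lay above their mature values. Postn lies on chromosome 3 from 54359267 to 54391041 on the plus strand, and Tnc on chromosome 4 from 63959785 to 64047015 on the minus strand. The 250 bases before a RefSeq start site of each are given 5′ to 3′ from the GRCm38.p6 reference, not from CD-1 mice. They are chr3:54360857-54361106 on the plus strand and chr4:64046937-64047186 on the minus strand, and since each gene has further upstream starts, these stretches lie wholly or partly within the extent of the gene. Of the exon bases of Tnc, 2.26% overlap a gene on the other strand. Capitals mark matches on either strand to any of 5 motifs, where N is any base and matches may overlap. These were TATANA, known as a TATA-like box, the CCAAT box, the GC box GGGCGG, the TEAD-type motif GGAATG and the AP-1-type motif TGANTCA.
Postn: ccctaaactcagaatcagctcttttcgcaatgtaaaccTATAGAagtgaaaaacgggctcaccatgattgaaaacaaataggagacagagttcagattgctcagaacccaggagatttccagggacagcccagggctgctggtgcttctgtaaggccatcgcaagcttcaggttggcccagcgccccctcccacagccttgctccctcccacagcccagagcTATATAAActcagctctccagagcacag
Tnc: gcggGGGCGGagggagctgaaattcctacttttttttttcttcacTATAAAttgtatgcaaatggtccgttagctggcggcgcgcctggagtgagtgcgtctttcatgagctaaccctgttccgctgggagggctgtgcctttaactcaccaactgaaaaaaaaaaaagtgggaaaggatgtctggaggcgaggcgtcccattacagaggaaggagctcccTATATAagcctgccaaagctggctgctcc
Postn held TATANA at 212, 28 and 26 bases before the start, and Tnc held it at 205 and 29 bases before the start. Of 32851 RefSeq windows of the same length, 22.6% held TATANA, so a match is a description of these letters only. Tnc also held GGGCGG, present in 32.7% of the windows, at 246 bases before the start. The matches depend on the start taken. RefSeq windows before another start of each gene were also searched, and that of Postn held none of the 5 motifs, while that of Tnc held TATANA at 126 and GGGCGG at 167 bases before its start. The window of Tnn held TATANA at 156, CCAAT at 59 and GGAATG at 160 bases before the start.

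Fn1 encodes fibronectin, the adhesive glycoprotein to which periostin and tenascin-C bind. It was at 1658, 1232 and 1549 CPM in the articular libraries, against 1884 and 2780 CPM in the mature ones. Every articular value lay below both mature values, with means of 1480 ± 222 (SD, n = 3) and 2332 ± 634 (SD, n = 2). The log2 fold change was -0.66 (SE 0.21), which did not pass edgeR's test (adjusted p = 0.144), while DESeq2 gave an adjusted p of 0.0316. RefSeq places Fn1 on chromosome 1 from 71585473 to 71653280, and 2.5% of its exon bases overlap a gene on the other strand, which matters where reads are counted without strand. Whether the authors counted by strand is not stated in the labels or methods.

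**Figure D3:**
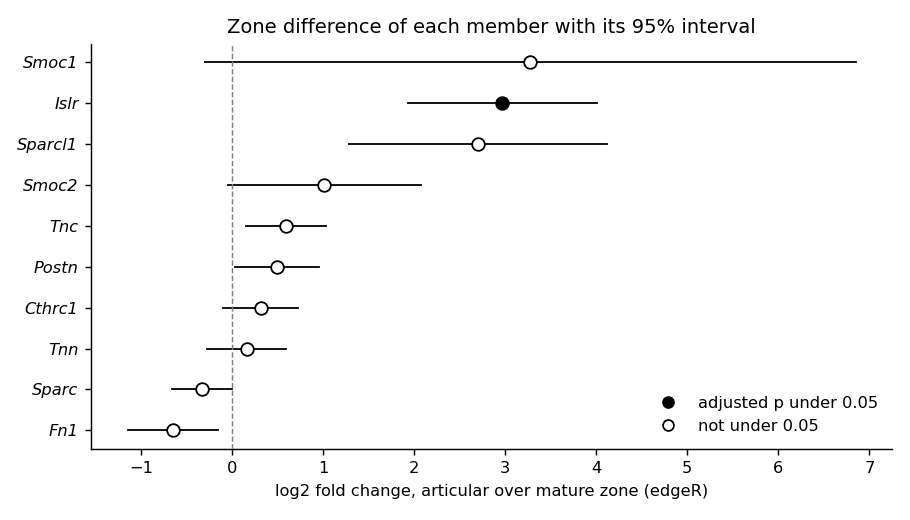
Fitted log2 fold changes of the 10 genes, articular over mature zone, from edgeR, with 95% intervals that are not adjusted for the number of genes. Islr at 2.97 is the gene that passed at an adjusted p under 0.05, and the interval of Smoc1 is the widest, from -0.31 to 6.85.

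Sparc led the SPARC family, the calcium-binding matricellular proteins to which Sparcl1, Smoc1 and Smoc2 belong. Its protein binds collagen and calcium. Sparc was at 11729, 13243 and 13377 CPM in the articular libraries, against 15029 and 17168 CPM in the mature ones. The zones did not overlap in TMM-scaled CPM, but did in FPKM and in CPM of the total count. The log2 fold change was -0.33 (SE 0.14, edgeR adjusted p = 0.249). Sparc made up 41.2%, 38.4% and 42.9% of the counts of the 10 members in the articular libraries, against 50.6% and 53.8% in the mature ones, a share that did not overlap between zones.

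**Figure D4:**
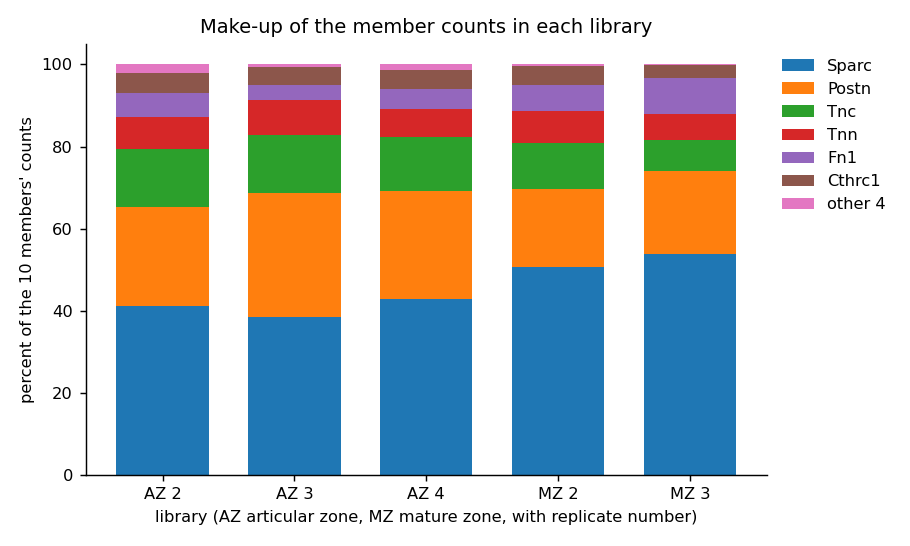
Stacked bars of the summed raw counts of the 10 members in each library, in percent, with Sparc, Postn, Tnc, Tnn, Fn1 and Cthrc1 shown singly and the other 4 genes together. Sparc takes 38.4% to 42.9% in the articular libraries, against 50.6% and 53.8% in the mature ones.

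The 10 genes together took 3.13%, 3.53% and 3.28% of all counts in the articular libraries, against 2.77% and 2.88% in the mature ones. In TMM-scaled CPM their sums were 28490, 34502 and 31197 in the articular libraries, against 29685 and 31902 in the mature ones. On that scale the zones overlapped, so the separation depends on the scaling. Postn, Tnc, Tnn, Fn1 and Sparc made up 93.1% to 96.8% of the counts of the 10 genes in each library. Cthrc1, Sparcl1, Smoc1, Smoc2 and Islr made up the rest, and Cthrc1 had more counts than Fn1 in articular zone replicate 3 (23556 against 19480).

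Sparcl1, also called hevin and known from blood vessel walls and brain, had an articular mean 6.48 times its mature mean. It was at 246, 60.0 and 202 CPM in the articular libraries, against 34.5 and 17.8 CPM in the mature ones. The zones did not overlap, and articular zone replicate 3 lay well below the other articular libraries, with a highest value 4.10 times the lowest. The log2 fold change was 2.70 (SE 0.61), which did not pass edgeR's test (adjusted p = 0.0632). Of 11 other settings with all 5 libraries, Sparcl1 passed in 4. It passed with DESeq2 (adjusted p = 3.70e-05) and with limma on log2(FPKM + 1) (adjusted p = 0.0464). In edgeR it passed where 10 counts were asked of every library (adjusted p = 0.0222) and where replicate number was added to the model (adjusted p = 0.0258). In the remaining settings it did not pass, with adjusted p up to 0.171 (limma on log2(FPKM + 1) without a filter). It passed without articular zone replicate 3 (edgeR adjusted p = 0.0468), but not without replicate 2 or 4 (edgeR adjusted p = 0.192 and 0.206). Without mature zone replicate 2 or 3, where 1 mature library was left, the log2 fold change was 3.25 or 2.30.

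Vessel markers were read beside Sparcl1. The sum of 8 endothelial markers was 197, 17.8 and 137 CPM in the articular libraries, against 36.8 and 6.77 CPM in the mature ones, with 0, 1 and 0 of them at 0 counts in the articular libraries, against 3 and 5 in the mature ones. Of the 8, Emcn passed as higher in the articular zone (edgeR adjusted p = 0.0365), with 377, 68 and 193 counts there and 0 in both mature zone libraries. Pecam1, a defining endothelial marker, had 495, 15 and 790 counts in the articular libraries, against 136 and 1 in the mature ones. The sum of 5 mural markers, genes of the cells that wrap vessels, was 137, 31.0 and 85.4 CPM in the articular libraries, against 15.8 and 0.0713 CPM in the mature ones, and 0 of 5 passed in edgeR. In both lists, as for Sparcl1, articular zone replicate 3 was the lowest of its zone. The part of vessel cells in the Sparcl1 difference was not tested.

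**Figure D5:**
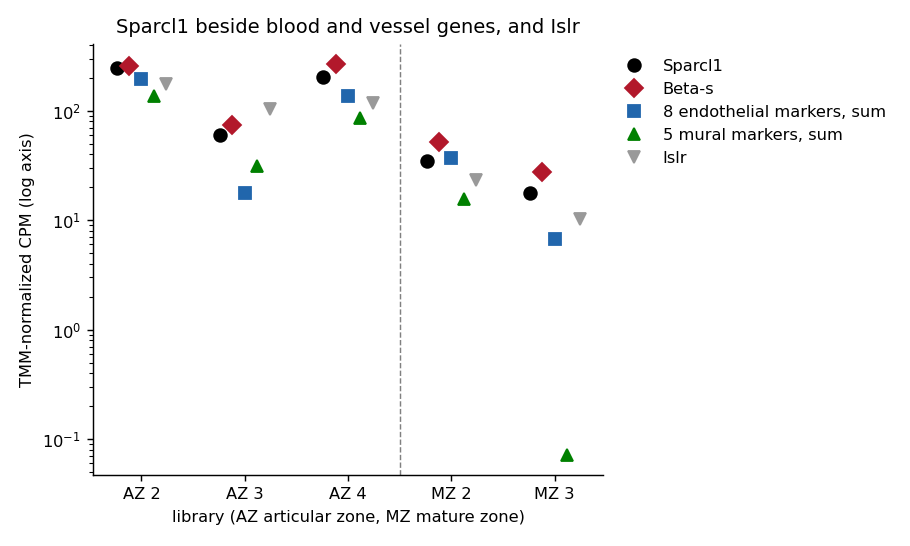
TMM-scaled CPM on a log axis, by library, of Sparcl1, Beta-s, Islr and the sums of 8 endothelial and 5 mural markers. In articular zone replicate 3, Sparcl1 is at 60.0 CPM and the endothelial sum at 17.8 CPM, while Islr is at 105 CPM.

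Smoc1 and Smoc2 encode secreted modular calcium-binding proteins, and SMOC1 is known from Xenopus as an antagonist of BMP signalling. Smoc1 had 451, 134 and 325 counts in the articular libraries, against 53 and 0 in the mature ones, or 26.0, 8.47 and 16.4 CPM against 3.48 and 0 CPM. The 0 in mature zone replicate 3 allows up to 0.214 CPM, the value of 3 counts, for counting error only. The zones did not overlap, but the log2 fold change of 3.27 had an SE of 1.55 (edgeR adjusted p = 0.289). Without mature zone replicate 2 the mature zone has no Smoc1 count, and the adjusted p was then 0.0123.

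Smoc2 was at 136, 69.4 and 99.1 CPM in the articular libraries, against 72.9 and 27.9 CPM in the mature ones. The zones overlapped, since articular zone replicate 3 lay below mature zone replicate 2, and the log2 fold change was 1.01 (SE 0.46, edgeR adjusted p = 0.270). Without mature zone replicate 2 it was 1.87 (edgeR adjusted p = 0.0414). Smoc1 had 19.1, 12.2 and 16.5 counts per 100 counts of Smoc2 in the articular libraries, against 4.77 and 0 in the mature ones, where the 0 allows up to 0.767. The log2 ratio of Smoc1 to Smoc2 in FPKM + 0.1 differed by 1.40 between zones (exact permutation p = 0.1, the smallest possible). With FPKM + 1 the difference was 0.16 (exact permutation p = 0.8), so its size rests on the pseudocount. Against Sparc, the log2 ratio of Sparcl1 differed by 2.85 (exact permutation p = 0.2) and that of Smoc1 by 2.84 (exact permutation p = 0.1), or by 1.44 with FPKM + 1 (exact permutation p = 0.1).

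Cthrc1, whose secreted protein is known from fibroblasts and from repair of vessel walls, had the smallest spread in the articular zone. It was at 1376, 1490 and 1412 CPM there, a coefficient of variation of 4.07%, and at 1322 and 979 CPM in the mature zone. The zones did not overlap, by a margin smaller than the spread within the mature zone. The log2 fold change was 0.31 (SE 0.18), with a 95% interval from -0.11 to 0.72 (edgeR adjusted p = 0.392).

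Islr rose in the articular zone. It encodes a leucine-rich repeat and immunoglobulin domain protein, also called meflin, that is known as a marker of mesenchymal stromal cells and fibroblasts in mice. It had 3028, 1655 and 2320 counts in the articular libraries, against 358 and 143 in the mature ones, or 175, 105 and 117 CPM against 23.5 and 10.2 CPM. The lowest articular library lay above both mature libraries, and the ratio of the zone means was 7.83. The log2 fold change was 2.97 (SE 0.45), with a 95% interval from 1.93 to 4.00 (edgeR adjusted p = 0.0171). The call was lost without articular zone replicate 2, 3 or 4 (edgeR adjusted p = 0.0755, 0.0611 and 0.0915), with log2 fold changes of 2.72, 3.12 and 3.05, and with limma on log2(FPKM + 1) without a filter (adjusted p = 0.101). Without mature zone replicate 2 the log2 fold change was 3.69 (edgeR adjusted p = 0.00564), and without mature zone replicate 3 it was 2.49 (edgeR adjusted p = 0.0435).

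Articular zone replicate 3 was the lowest of its zone for Islr too, but the highest articular value of Islr was 1.67 times its lowest, against 4.10 times for Sparcl1. Islr had 71.0, 174 and 57.8 counts per 100 counts of Sparcl1 in the articular libraries, against 68.2 and 57.4 in the mature ones. Of its exon bases, 6.74% overlap those of its neighbour Islr2 on the same strand, and Islr2 had 0 counts in all 3 articular zone libraries and 36 and 0 in the mature zone. Among the fibrous markers, Pdgfra, a receptor gene of mesenchymal cells, was at 181, 97.8 and 170 CPM in the articular libraries, against 39.2 and 21.4 CPM in the mature ones (log2 fold change 2.30, SE 0.40, edgeR adjusted p = 0.0259). Dpt, the gene of dermatopontin, also passed as higher (log2 fold change 1.97, SE 0.36, edgeR adjusted p = 0.0318). None of the other fibrous markers passed. Scx lay the other way, with a log2 fold change of -0.92 (SE 1.55, edgeR adjusted p = 0.820). It had 59, 9 and 40 counts in the articular libraries, against 10 and 97 in the mature ones. Tnmd had 701, 0 and 231 counts in the articular libraries, against 0 and 0 in the mature ones. The part of the make-up of cells in the Islr difference was not tested.

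The upstream stretches of Islr, the member that passed, and Sparc, the most abundant member, are shown as well. Islr lies on chromosome 9 from 58156246 to 58159236 and Sparc on chromosome 11 from 55394159 to 55420080, both on the minus strand. The windows are chr9:58158555-58158804 and chr11:55420081-55420330 of GRCm38.p6, on the minus strand, 5′ to 3′, and that of Islr lies within the extent of the gene, before an inner start. No letters are in capitals, since none of the 5 motifs matched.
Islr: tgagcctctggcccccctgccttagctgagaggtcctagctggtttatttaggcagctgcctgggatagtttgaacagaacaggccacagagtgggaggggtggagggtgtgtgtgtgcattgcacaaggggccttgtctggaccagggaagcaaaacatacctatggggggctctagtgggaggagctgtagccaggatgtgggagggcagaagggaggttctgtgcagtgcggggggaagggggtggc
Sparc: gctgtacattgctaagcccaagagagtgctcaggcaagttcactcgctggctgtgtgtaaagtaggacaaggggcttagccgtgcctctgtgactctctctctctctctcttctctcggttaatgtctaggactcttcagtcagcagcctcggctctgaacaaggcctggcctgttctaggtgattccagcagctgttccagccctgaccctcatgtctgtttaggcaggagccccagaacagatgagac
RefSeq windows were at hand for 5 of the 10 members, and the absence of a match says only that these letters are not in these windows.

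Relatives and partners of the members were counted from 4 lists, beside the shares of all genes that passed, 1.14% higher and 1.85% lower. Of 25 relatives (other tenascins, SPARC-like genes, thrombospondins, CCN genes and fibulins), 20 were tested, and 2 rose and 3 fell in the articular zone. Their median log2 fold change was 0.82, against 0.07 over all genes tested. Fbln2, the gene of fibulin-2, was at 192 ± 67.6 CPM in the articular zone (SD, n = 3) and 54.6 ± 3.57 CPM in the mature zone (SD, n = 2; edgeR adjusted p = 0.0339). Thbs1, Comp and Ctgf were the 3 that fell, at 40.5, 14.8 and 47.2 CPM in the articular zone against 760, 930 and 247 CPM in the mature zone. Thbs1 and Comp encode thrombospondins, the latter known from cartilage, and Ctgf encodes a CCN protein. Thbs2, which was picked out after its values were seen, also rose, with 783 CPM against 282 CPM (edgeR adjusted p = 0.0375).

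Of 21 matrix partners and assembly enzymes, 2 rose and 3 fell, with a median log2 fold change of -0.23. Col3a1, a fibrillar collagen gene, had means of 12157 CPM (articular) and 6840 CPM (mature) (edgeR adjusted p = 0.0263). Loxl3, Loxl4 and Hspg2 fell, with log2 fold changes of -3.19, -4.34 and -1.19. The first and second encode lysyl oxidase-like enzymes, which cross-link collagen, and Hspg2 encodes perlecan. Vcan, the gene of the proteoglycan versican, was named after its values were seen and was at 303 CPM against 132 CPM (edgeR adjusted p = 0.0336).

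Receptors for these proteins include integrins and syndecans. Of 20 listed, 19 were tested and 2 passed, with a median log2 fold change of 0.47. Itgb5, an integrin subunit, rose with a log2 fold change of 1.33 (SE 0.28, edgeR adjusted p = 0.0489), and Sdc4, the gene of the heparan sulfate proteoglycan syndecan-4, fell with -1.25 (SE 0.16, edgeR adjusted p = 0.0107). Of 12 known upstream regulators 1 passed, Tgfb3, a TGF-beta ligand, at 133 CPM in the articular zone and 48.3 CPM in the mature zone (edgeR adjusted p = 0.0292), and the median was 0.56.

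The list counts moved with single libraries. With 1 articular library left out at a time (2, 3, 4), the number that passed was 3, 5 and 1 for the relatives. It was 1, 0 and 0 for the partners, 1, 1 and 0 for the receptors, and 0, 0 and 0 for the regulators. The number over all genes moved as well, to 98 of 12497, 86 of 12826 and 13 of 12571 tested. Of the partners, 13 and 7 were at an unadjusted p under 0.05 in edgeR where the count was 0, and of the receptors 3. Of the regulators, 2, 3 and 2 were where the count was 0. Over all genes, 1864 of 12497, 2330 of 12826 and 1828 of 12571 were at that level without articular zone replicate 2, 3 and 4. With DESeq2 on all 5 libraries, 12, 8, 3 and 3 genes of the 4 lists passed, against 13.7% of all genes tested.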

How the data were processed

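RNA of laser-captured articular and mature zone cells was sequenced from single-end poly(A) libraries. Per the labels and the study's methods, the authors trimmed reads with Trimmomatic 0.32 and mapped them to mm10 with SHRiMP. Which program counted the reads, and whether by strand, is not stated in the labels or methods. Raw counts per gene symbol, not normalized, were deposited. FPKM values, deposited by the authors, take account of gene length and mapped fragments and have a floor of 0.1. A deposited table of the authors' own DESeq comparison (means, fold changes, p-values) was not used.

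Counts were tested with edgeR 4.0.16 in R 4.3.3 (TMM, glmQLFit robust, glmQLFTest, zone alone, 3 residual degrees of freedom) for the 13119 of 22609 genes that reached 10 counts in 2 or more libraries. The common biological coefficient of variation was 0.680. A call is a Benjamini-Hochberg adjusted p under 0.05, and the SE was taken from the fold change and its F. Scripts were tested on simulated data. DESeq2 1.42.0, limma 3.58.1, other scalings and filters, a replicate block and leaving out each library were alternatives. Named genes are all members, up to 4 passing genes with the smallest p per list, and the 3 genes most like each member, of which 1 is not reported here. Members and lists were chosen with earlier results of these data known. Motifs were searched in RefSeq GRCm38.p6 windows. Markers of 10 cell types were summed. Osteoblast markers gave 184 to 783 CPM in the articular libraries, against 533 and 853 CPM in the mature ones. Hypertrophic chondrocyte markers gave 662 to 1272 CPM against 3247 and 4733 CPM. Of these sums, Panx3 alone gave 655 to 1265 CPM against 3180 and 4673 CPM. Myeloid and osteoclast markers gave 385 to 688 CPM against 206 and 418 CPM. Of the latter sums, Ctsk alone gave 367 to 466 CPM against 186 and 350 CPM. Schwann cell markers gave 10.6 to 19.5 CPM against 20.1 and 61.2 CPM.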

Additional observations from a re-analysis of the deposited data

How the results depend on the processing

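No log2 fold change of the 10 genes changed sign under any alternative. Over all alternatives and genes, 143 values kept their side of the threshold, 12 passed it where they had not and 4 lost it, the last all of Islr. Beside 393 genes and 1 of the 10 members, the number of all genes and of members that passed was 593 and 1 without a low count filter, 566 and 2 with 10 counts asked of every library (9 members tested, Smoc1 left out), 1802 and 4 with DESeq2, 476 and 2 with limma on log2(FPKM + 1), and 32 and 0 at an adjusted p under 0.01 (5 members at an unadjusted p under 0.05 in edgeR). With limma on log2(FPKM + 1) without a filter it was 0 and 0, with 2357 genes and 5 members at an unadjusted p under 0.05. With 1 library left out, the number of genes ranged from 13 without articular zone replicate 4 to 1289 without mature zone replicate 2, and that of members from 0 without articular zone replicates 2 or 4 (5 and 4 at an unadjusted p under 0.05 in edgeR) to 6 without mature zone replicate 2. The lists of relatives, partners, receptors and regulators ranged from 1 to 10, 0 to 8, 0 to 3 and 0 to 1, and with DESeq2 gave 12, 8, 3 and 3. The cause of these differences was not tested. Over all genes, 2634 of 13119 were at an unadjusted p under 0.05 in edgeR with all 5 libraries. It was 1864 of 12497 without articular zone replicate 2 and 1828 of 12571 without replicate 4. Where 1 mature library was left, its spread was assumed to equal that of the articular ones. Total count scaling, chosen after the data were seen, gave 353 and 1 and moved the median log2 fold change of all genes by 0.20, and limma on log2(FPKM + 1) moved it by 0.19. The difference in the log2 ratio of Tnc to Postn ranged from -0.15 without mature zone replicate 3 to 0.40 without mature zone replicate 2.

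With the replicate number as a block, 226 genes and 2 members passed, Islr (adjusted p = 0.00699) and Sparcl1 (adjusted p = 0.0258) in edgeR. Deviations of same-numbered libraries from their zone mean correlated at 0.14 and 0.13 across genes. With 2 mature libraries these deviations mirror each other, so the 2 correlations are not independent values. The labels name each number as a biological replicate, but do not say what libraries of the same number share. Only 2 numbers occur in both zones, so the libraries were not treated as paired, and whether they share animals or a batch is not known. With 3 against 2 libraries, an exact test cannot go below 0.1, and differences under the spread of these pools were not detectable.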

Other observations

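The gene whose pattern over the 5 libraries was most like that of each member was found among 8868 genes at 10 CPM or more, by the root mean square difference of centred log2 CPM, given as a description over 5 libraries that share the same depth and scaling. For Sparcl1 it was Beta-s at 0.21, followed by Atf7 and Mcm10. Beta-s is a RefSeq synonym of Hbb-bs, an adult beta globin gene. It had 4474, 1165 and 5361 counts in the articular libraries, against 789 and 389 in the mature ones, and fell short in edgeR's test (log2 fold change 2.33, SE 0.58, adjusted p = 0.0785). Articular zone replicate 3 was the lowest of its zone for Beta-s as it was for Sparcl1. Sparcl1 had 95.3, 81.5 and 74.9 counts per 100 counts of Beta-s in the articular libraries, against 66.5 and 64.0 in the mature ones. Hba-a1, Hba-a2, Hbb-b1 and Hbb-b2 are listed at 0 in every library, and globin genes can share reads with near-identical copies. Alas2, an enzyme gene of heme synthesis in red cell precursors, had 344, 33 and 55 counts in the articular libraries, against 102 and 64 in the mature ones. The part of blood in the Sparcl1 difference was not tested.

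For Smoc1 the nearest gene was Eln, the gene of elastin, at 0.16, followed by Ptgfr and Nbl1. For Islr it was Rftn1 at 0.12, followed by Fam167a, and for Smoc2 Siae at 0.11, followed by Pramef8 and Yaf2. The abundant members, with log2 fold changes from -0.66 (Fn1) to 0.59 (Tnc), had many near neighbours. The nearest were Aco1, Rest and A4galt for Postn, Saal1, Epb4.1 and Cflar for Tnc, and Mtch2, Acat1 and Acbd6 for Tnn. They were Eif2ak3, Arfip2 and Trim33 for Fn1, Ssb, Ptp4a2 and Swi5 for Sparc, and Prdx2, Pmm1 and Ppp2r3c for Cthrc1. Among the members themselves, Cthrc1 and Tnc were the closest pair, at 0.15.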
